A study of Arabidopsis thaliana with 8 samples.

Results

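Loss of the long isoform of the polyadenylation factor CPSF30 was examined by comparing the line *cpsf30-3* with wild type (WT). The comparison used 4 of the 8 libraries of the series, 2 of *cpsf30-3* and 2 of WT, chosen by their labels. All were made from polyadenylated RNA of *Arabidopsis thaliana* seedlings (ecotype Col-0) aged 9 days. *cpsf30-3* is a single T-DNA insertion line in *CPSF30*, characterized by the study as making no mRNA for the long isoform (CPSF30L). The other 4 libraries came from *cpsf30-1*, an insertion line without either isoform, and from *fip37L*, a *fip37* mutant that expresses FIP37 from the *LEC1* promoter and that the study's methods place on a richer medium with sucrose. Their counts stand beside a few windows only. The labels do not say whether replicates came from separate cultures, so every p-value measures the spread between these libraries, which may be technical.

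CPSF30 is a zinc-finger, RNA-binding subunit of the cleavage and polyadenylation specificity factor, the complex that recognizes the end of a nascent mRNA and has it cut and given a poly(A) tail. In plants the long isoform adds a YTH domain, a fold that binds N6-methyladenosine (m6A), the mark that the FIP37-containing complex places on mRNA. Where cleavage is missed, RNA polymerase continues into the sequence behind the gene, and the transcript can run into the next gene as a chimeric mRNA. Reads just downstream of an annotated 3′ end are therefore used as a measure of such readthrough. The question addressed here was which genes gain or lose downstream reads when only the long isoform is missing.

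The measured value was the raw number of reads in the 500 bp downstream of a gene, 1 window per gene for 31109 genes. The 4 libraries held between 4349654 and 5198696 window counts. Levels are given as CPM, counts per 1000000 counts after scaling of the libraries, and the floor of 3 counts in a library was 0.576 to 0.710 CPM, which covers counting error only. Windows were tested in 1 edgeR quasi-likelihood fit of the 4 libraries, which kept 11228 windows (36.1%). A call required an adjusted p below 0.05 together with a 2-fold change or more. The 2 WT libraries varied less (biological coefficient of variation 5.03%) than the 2 *cpsf30-3* libraries (12.1%). Windows do not hold readthrough alone. No other annotated gene lay in 1142 of the tested windows (free windows). In 3578 there was a gene of the same strand, and 6412 faced only genes of the opposite strand. The last kind held between 73.4% and 74.6% of all reads in each library. The study calls its read density strand-specific, and the library kit marks strand. Of 24 pairs of windows that share at least 480 bp on opposite strands and hold at least 40 counts, however, 12 had counts within 10% of each other, 3 of them equal. The other 12 pairs differed more, with a ratio of the smaller to the larger count from 0.821 down to 0.00597. Another comparison used 264 genes covered by at least 250 bp by both a same-strand window and a facing window with at least 1000 counts. In 198 of them (75.0%) the same-strand window held at least 10% of the counts of the facing window. The strand option of the counting was not tested. In the glycine-rich protein gene cluster described further on, windows of both strands held the same counts in all 8 libraries. Reads there were counted in windows of both strands, and how far this holds for other windows was not tested. Gene-body reads were not analysed here. A window can therefore change with readthrough, with the level of its own gene or with that of an overlapped gene, and these cannot be told apart from window counts alone.

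The mutated gene gave low counts. The window behind the first *CPSF30* model (AT1G30460.1) contained 1 and 1 reads in WT and 2 and 0 in *cpsf30-3*, and was not tested. The window behind the second model (AT1G30460.2) held 19 and 14 counts in the WT libraries and 4 and 2 in those of *cpsf30-3*. Both mutant libraries were below both WT libraries. In a fit of all transcript models, added after the counts were seen, this window fell by 2.3 on the log2 scale (SE 0.51, edgeR adjusted p = 0.02). The same window held 0 and 0 counts in *cpsf30-1*. These windows do not measure the 2 isoforms separately.

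Windows that gained reads in *cpsf30-3* outnumbered those that lost them. Of the 11228 tested windows, 379 rose (3.38%) and 75 fell (0.668%). In each of these 454 windows both *cpsf30-3* libraries lay on one side of both WT libraries. Over all tested windows, both *cpsf30-3* libraries were above both WT libraries in 27.9% and below both in 27.4%. Separation of the groups in a called window is therefore no support beyond the call. The rises had a median log2 change of 1.69, and 131 of them reached 4-fold. The falls had a median of -1.34, and 15 reached 4-fold. Over all tested windows the median log2 change was -0.004. Windows free of other genes rose in 96 of 1142 cases (8.41%), windows on a same-strand gene in 101 of 3578 (2.82%), and windows facing an opposite-strand gene in 176 of 6412 (2.74%). Falls followed at 1.93%, 0.671% and 0.437% in the same order. DESeq2 called 195 rises (1.74%) and 19 falls (0.169%) among the same windows. Without WT replicate 1 there were 99 rises and 15 falls, without WT replicate 2 there were 161 and 30, without *cpsf30-3* replicate 1 there were 393 and 121, and without *cpsf30-3* replicate 2 there were 376 and 114. With 1 WT library left, the spread is that of the more variable *cpsf30-3* libraries alone.

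**Figure D1:**
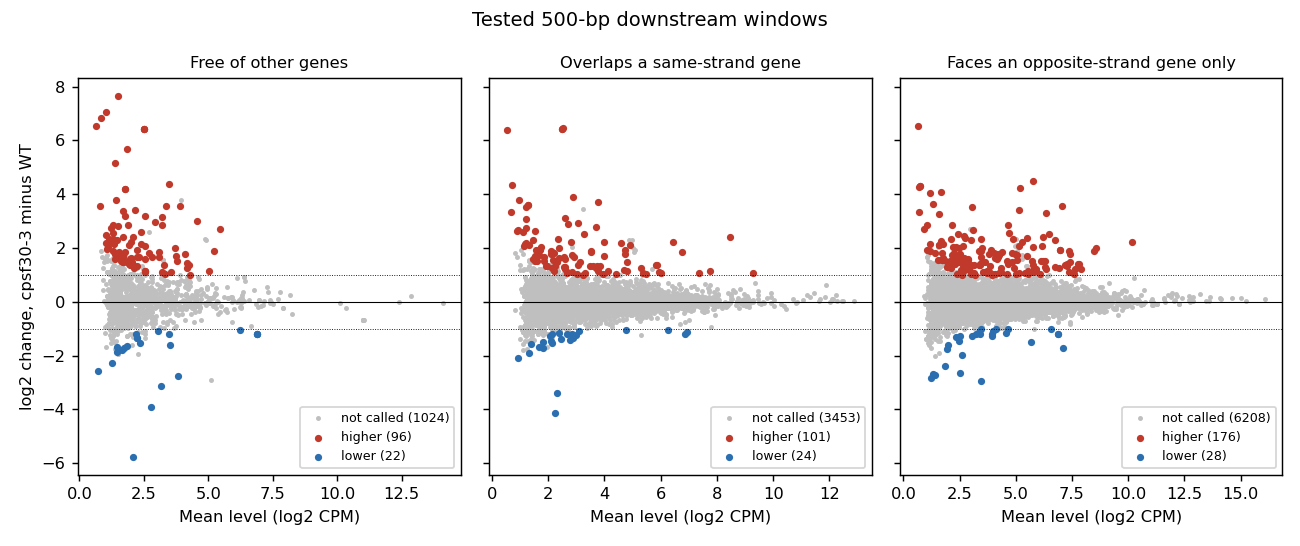
Each point is 1 of the tested windows, with its mean level (log2 CPM) on the x axis and its log2 change (*cpsf30-3* minus WT) on the y axis, in 1 panel per class of window; dotted lines mark a 2-fold change. Called rises number 96, 101 and 176 in the 3 panels and called falls 22, 24 and 28, and the highest rises, up to 7.64, lie at low mean levels.

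The genes that the study had found to run into their neighbours in another mutant were the first group examined. NERD is a GW-repeat protein of the small-RNA pathways, and in *nerd-1* plants the study listed upstream partners of chimeric mRNAs (GENE1) and genes with more downstream reads. Those lists were drawn from other libraries, of *nerd-1* and its own controls. Together they name 115 genes, 27 of them on both lists, and 66 of the 115 had a tested window in the present fit. Of the 66 windows, 23 rose and 0 fell, against 3.38% and 0.668% of all tested windows. Their median log2 change was 1.17, and 60 of 66 were above 0, against 5563 of all 11228 tested windows. By edgeR 43 of the 66 were higher and 0 lower at an unadjusted p under 0.05, against 1645 and 1190 of all 11228. DESeq2 called 8 higher and 0 lower, against 195 and 19 of all. Rises made up 9 of 21 windows free of other genes (42.9%, against 8.41% of all free windows tested). They made up 9 of 32 on a same-strand gene (28.1%, against 2.82%) and 4 of 12 facing an opposite-strand gene (33.3%, against 2.74%). Without the filter on low counts, 114 of the 115 genes entered the fit, of which 34 rose, with a median of 1.08. In that fit 577 of all 22501 windows rose. Most of these calls were lost when either WT library was left out, as were most calls over all tested windows. The spread is then that of the *cpsf30-3* libraries alone. The median log2 change was 1.09 without WT replicate 1 and 1.24 without WT replicate 2. It was 1.14 without *cpsf30-3* replicate 1 and 1.14 without *cpsf30-3* replicate 2.

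Among the GENE1 partners alone, 20 of 35 were tested, 6 rose (30.0%, against 3.38% of all tested windows) and 0 fell, with a median of 1.17. DESeq2 called 1, *AT3G49060*, higher and 0 lower. The ends of these 6 genes are shown because they are the points past which the extra reads lie. Each line gives the last 15 bases of the gene in lower case and the first 15 bases of the window in capitals, 5′ to 3′ on the strand of the gene, read from TAIR10.1.
GDPD4 (AT1G71340, minus strand, chr1:26885155-26885184): gtctgtttatataatATGGATAGAGAACGA
RPL9 (AT3G44890, plus strand, chr3:16388709-16388738): aacaagttttgtccaATGGAGTTTAATGGT
AT3G47890 (minus strand, chr3:17666912-17666941): aaagtaatcttggccAAATCATTGTCACAT
AT3G49060 (minus strand, chr3:18187123-18187152): tttatacgtaatacgATGTCGTTCCTTTTG
AT4G19830 (minus strand, chr4:10772320-10772349): atgatcagattggacAACACTTGGCCCATT
HDS (AT5G60600, plus strand, chr5:24363471-24363500): attaatcaacttatgAACTCCTCCTAATAT

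In *GDPD4* and *RPL9* the first base in capitals is also the first base of the next annotated gene on the same strand (AT1G71330 and AT3G44900), at a distance of 0 bp, so the window lies in that gene from its start. *AT3G47890* is followed by AT3G47875 after 35 bp, *HDS* by AT5G60610 after 105 bp and *AT3G49060* by AT3G49055 after 169 bp, although a longer model of *AT3G49060* itself ends within this window. The window of *AT4G19830* held no other placed gene; its listed partner AT4G19829 was not placed in this annotation. The canonical poly(A) signal AATAAA was searched in the last 50 bases of each protein-coding gene. It occurred in 9.63% of 26710 genes, in 9.83% of those tested and in 9.97% of those whose window rose. Of 66 genes whose window fell, 15.2% held it. The reverse complement TTTATT occurred in 7.42%, 6.79%, 9.14% and 7.58% in the same order. By class, AATAAA was in 11.0% of genes with a risen free window and in 6.19% with a risen same-strand window, against 9.67% and 11.0% of the uncalled windows of these classes. Among genes whose window fell, AATAAA was in 26.3% of 19 with a free, 17.4% of 23 with a same-strand and 4.17% of 24 with a facing window. These shares describe letters in a window, rest on few genes for the falls and were not tested.

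The largest rise among these 6 was that of *AT3G49060*, which encodes a U-box protein kinase. Its window had 2 and 1 counts in WT and 24 and 12 in *cpsf30-3*. The groups did not overlap, and the log2 change was 3.59 (SE 0.62, edgeR adjusted p = 0.0054). *HDS* encodes a plastid enzyme of isoprenoid precursor synthesis (the methylerythritol phosphate pathway). Its window went from 0 and 3 counts to 15 and 19, a log2 change of 3.52 (SE 0.73, adjusted p = 0.014). *RPL9* encodes a plastid ribosomal protein. Its window contained 4 and 4 reads in WT and 20 and 17 in *cpsf30-3*, a log2 change of 2.29 (SE 0.45, adjusted p = 0.01). In WT all 3 windows held at most 4 counts a library, close to the floor of 3.

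*AT3G47890*, annotated as a ubiquitin hydrolase-related gene, went from 3 and 5 counts to 23 and 10, a log2 change of 2.12 (SE 0.54, edgeR adjusted p = 0.035). *AT4G19830*, an FKBP-type peptidyl-prolyl isomerase gene, went from 8 and 11 to 26 and 21 (log2 change 1.41, SE 0.36, adjusted p = 0.034). *GDPD4*, annotated in the phosphodiesterase superfamily, had the most reads of the 6. Its window held 19 and 27 counts in the WT libraries and 58 and 51 in those of *cpsf30-3*, or 4.58 ± 1.32 and 11.8 ± 0.437 CPM (SD, n = 2), a log2 change of 1.36 (SE 0.27, edgeR adjusted p = 0.011). Both mutant libraries lay above both WT libraries in each of these windows. The *GDPD4* window held 100 and 71 counts in *fip37L* and 91 and 102 in *cpsf30-1*. None of the 6 windows was called without WT replicate 1, with adjusted p of 0.12 for *AT3G49060*, 0.2 for *HDS*, 0.19 for *RPL9*, 0.35 for *AT3G47890*, 0.32 for *AT4G19830* and 0.19 for *GDPD4*. Without WT replicate 2, the calls of *AT3G49060* (0.11), *RPL9* (0.14), *AT3G47890* (0.2) and *AT4G19830* (0.16) were lost. Without *cpsf30-3* replicate 1 those of *AT3G47890* (0.33) and *AT4G19830* (0.084), and without *cpsf30-3* replicate 2 that of *AT4G19830* (0.077).

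**Figure D2:**
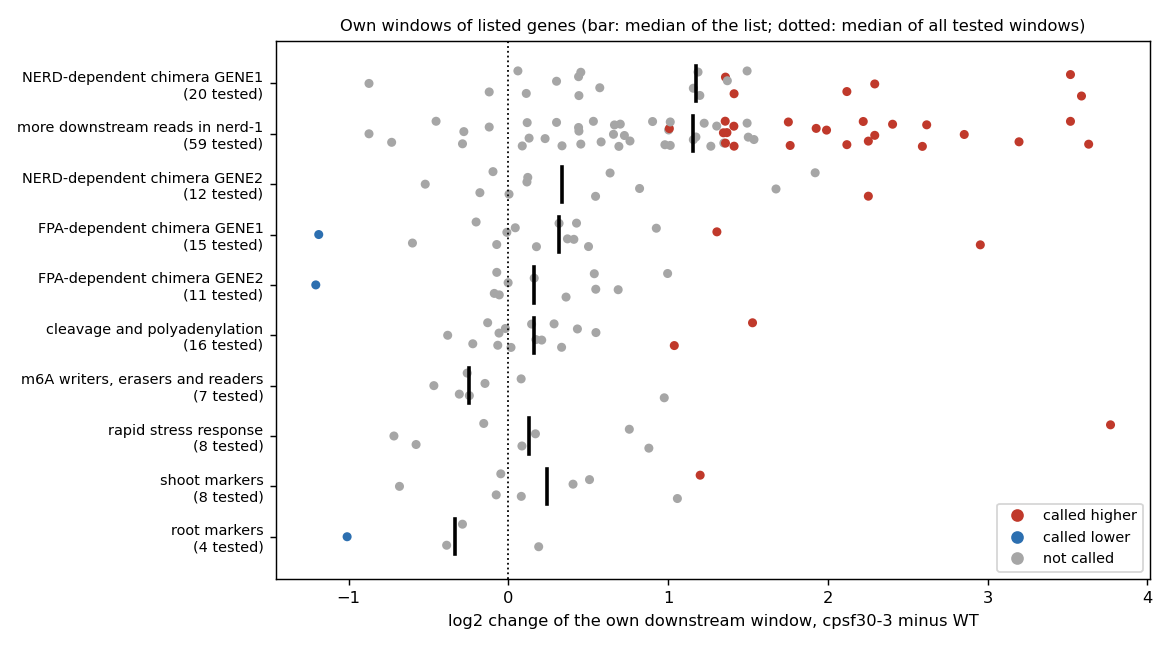
Each point is the log2 change (*cpsf30-3* minus WT, x axis) of the own downstream window of a listed gene, in 1 row per list; bars are list medians and the dotted line is the median of all tested windows (-0.004). The medians of the first 2 lists, 1.17 and 1.16, lie right of all the others, which run from -0.34 to 0.33.

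Among the readthrough loci that the study followed up by other methods, 6 were chosen here; *GDPD4* and *AT3G47890* rose, as given above, and 4 did not pass. *ARI5* (AT1G05890), a RING-type ubiquitin ligase gene, had 7 and 7 counts in WT and 15 and 14 in *cpsf30-3*. These groups did not overlap, but the log2 change of 1.16 (SE 0.42) had an edgeR adjusted p of 0.11. *AT2G21440*, an RNA-binding protein gene, contained 10 and 9 reads in WT and 27 and 13 in *cpsf30-3* (log2 change 1.17, SE 0.41, adjusted p = 0.1). *AT5G07630*, annotated as a lipid transporter, held 15 and 17 against 20 and 20 (0.44, SE 0.33, adjusted p = 0.45). *ATS2* (AT4G30580), a plastid acyltransferase gene, held 19 and 25 against 29 and 26 (0.44, SE 0.30, adjusted p = 0.4). All 4 were higher in both mutant libraries than in both WT libraries, as were 27.9% of all tested windows. In *fip37L* the *ARI5* window held 80 and 45 counts, the *AT2G21440* window 87 and 65 and the *AT5G07630* window 113 and 98. The 2 control loci of the study, *PAB4* and *PHYB*, were not tested: their windows held at most 3 counts in WT and at most 5 in *cpsf30-3*.

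The list of genes with more downstream reads in *nerd-1* gave larger counts outside the chimera pairs. *HCF244* (AT4G35250) encodes a factor needed for photosystem II assembly, and its window (chr4:16770573-16771072) was free of other genes. It held 8 and 3 counts in the WT libraries and 45 and 49 in those of *cpsf30-3*, or 1.07 ± 0.652 and 10.2 ± 1.92 CPM (SD, n = 2). The groups were far apart, with a log2 change of 3.20 (SE 0.40, edgeR adjusted p = 0.00073), and the call was kept without any single library. *PAB2* (AT4G34110) encodes a poly(A)-binding protein. Its free window (chr4:16340315-16340814) had 10 and 4 counts in WT and 34 and 44 in *cpsf30-3*, a log2 change of 2.59 (SE 0.42, adjusted p = 0.0039). *AT3G08610*, a gene for a subunit of mitochondrial complex I, went from 4 and 4 counts to 35 and 20 (log2 change 2.85, SE 0.44, adjusted p = 0.0027). *AT5G35100*, a cyclophilin gene, went from 1 and 2 to 21 and 16 (log2 change 3.63, SE 0.57, adjusted p = 0.003). Mutant libraries exceeded WT libraries in all 4. The last 3 lost the call without either WT library, at adjusted p of 0.056 and 0.067 for *PAB2*, 0.1 and 0.053 for *AT3G08610*, and 0.12 and 0.054 for *AT5G35100* (without WT replicate 1 and 2 in turn).

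Downstream partners and the *fpa* chimeras gave 1 or 2 called windows a list in either direction. Of 12 tested own windows of GENE2 genes from the *nerd-1* chimeras, 1 rose (AT4G19829, from 2 and 6 counts to 19 and 17) and 0 fell, 8.33% higher against 3.38% of all tested windows, with a median log2 change of 0.33. At an unadjusted p under 0.05, edgeR gave 4 higher and 0 lower of the 12, against 1645 and 1190 of all 11228 tested windows. DESeq2 called 0 of the 12. FPA is an RNA-binding protein that promotes early poly(A) site choice, and the study also listed chimeras of *fpa* plants. Of 15 tested GENE1 windows of that list, 2 rose (13.3%) and 1 fell (6.67%, against 0.668% of all), with a median of 0.32. The rises were *AT2G05510* and *AT2G32320*, and the fall was the beta-glucosidase gene *BGLU7*. *AT2G05510* lies in a gene cluster, described further on, in which several windows held the same reads, and its gain may belong to them. Of 11 tested GENE2 windows, 0 rose, 2 were higher at an unadjusted p under 0.05, DESeq2 called 0, and the expansin gene *EXPA1* fell (9.09%). The *EXPA1* fall (32 and 26 counts to 13 and 10, log2 change -1.21, SE 0.33, edgeR adjusted p = 0.042) was lost without any 1 of the 4 libraries, at adjusted p of 0.32, 0.2, 0.064 and 0.1. *BGLU7* (61 and 34 counts to 19 and 19, -1.19, SE 0.33, adjusted p = 0.046) was lost without WT replicate 1 (0.41) or WT replicate 2 (0.057). *AT2G32320* (21 and 12 to 51 and 25, 1.31, SE 0.36, adjusted p = 0.047) was lost without WT replicate 1 (0.2), WT replicate 2 (0.33) or *cpsf30-3* replicate 1 (0.22). The call of AT4G19829 was lost without WT replicate 1 (0.27), WT replicate 2 (0.085) or *cpsf30-3* replicate 2 (0.056).

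The largest rises outside the lists were at genes of different kinds. Among called windows that were free or on a same-strand gene, separated the groups and averaged at least 20 counts in *cpsf30-3*, the 10 largest comprised 4 separate loci and 6 windows of 1 gene cluster described further on. *AT5G45630* encodes a protein of the senescence-regulator (DUF584) family. Its window contained 0 and 0 reads in WT and 17 and 30 in *cpsf30-3*, at least 8.53-fold higher than the floor of 3 counts in a WT library (edgeR adjusted p = 0.0027). *AT5G44390* encodes a berberine-bridge-type oxidoreductase. Its window went from 1 and 0 counts to 36 and 24 (log2 change 5.69, SE 0.65, adjusted p = 0.00041). *AT3G29647* is annotated as a pseudogene, and its window went from 0 and 1 counts to 27 and 15 (5.18, SE 0.75, adjusted p = 0.0021). The best-covered of the 4 was *AT5G51180*, an alpha/beta-hydrolase gene. Its window (chr5:20801480-20801979) held 4 and 6 counts in the WT libraries and 82 and 111 in those of *cpsf30-3*, or 0.997 ± 0.324 and 21.2 ± 7.12 CPM (SD, n = 2). The groups did not overlap, with a log2 change of 4.37 (SE 0.38, adjusted p = 7.5e-05), and the window held 132 and 81 counts in *fip37L* and 7 and 100 in *cpsf30-1*. *AT5G45630* (adjusted p = 0.081) and *AT3G29647* (0.088) lost their calls without WT replicate 1.

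A further 6 free windows that rose were chosen after the values were seen and form no list. *HB4* (AT2G44910) encodes a homeodomain-leucine zipper factor of shade responses. Its window had 10 and 6 counts in WT and 93 and 81 in *cpsf30-3*, a log2 change of 3.55 (SE 0.28, edgeR adjusted p = 4e-05). It held 4 and 6 counts in *cpsf30-1*. *YUC5* (AT5G43890) encodes a flavin monooxygenase of auxin synthesis, and its window went from 2 and 1 counts to 26 and 15 (3.78, SE 0.58, adjusted p = 0.0027), with 1 and 1 in *cpsf30-1*. *RD26* (AT4G27410) encodes a dehydration-responsive NAC factor. Its window contained 78 and 80 reads in WT and 248 and 288 in *cpsf30-3*, a log2 change of 1.90 (SE 0.18, adjusted p = 0.00014). *HSFA7A* (AT3G51910), a heat shock factor gene, went from 20 and 16 to 79 and 42 (1.85, SE 0.30, adjusted p = 0.0042). *EMB2001* (AT2G22870), annotated as a nucleoside triphosphate hydrolase, went from 9 and 14 to 97 and 152 (3.56, SE 0.37, adjusted p = 0.00024). *AT3G56210*, an ARM-repeat protein gene, had more reads than these, 44 and 71 in WT and 380 and 321 in *cpsf30-3* (2.72, SE 0.19, adjusted p = 2e-05). All 6 windows separated the groups, as every called window did. The *YUC5* call was lost without WT replicate 1 (adjusted p = 0.089) or WT replicate 2 (0.069), and so was that of *HSFA7A* (0.1 and 0.07).

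**Figure D3:**
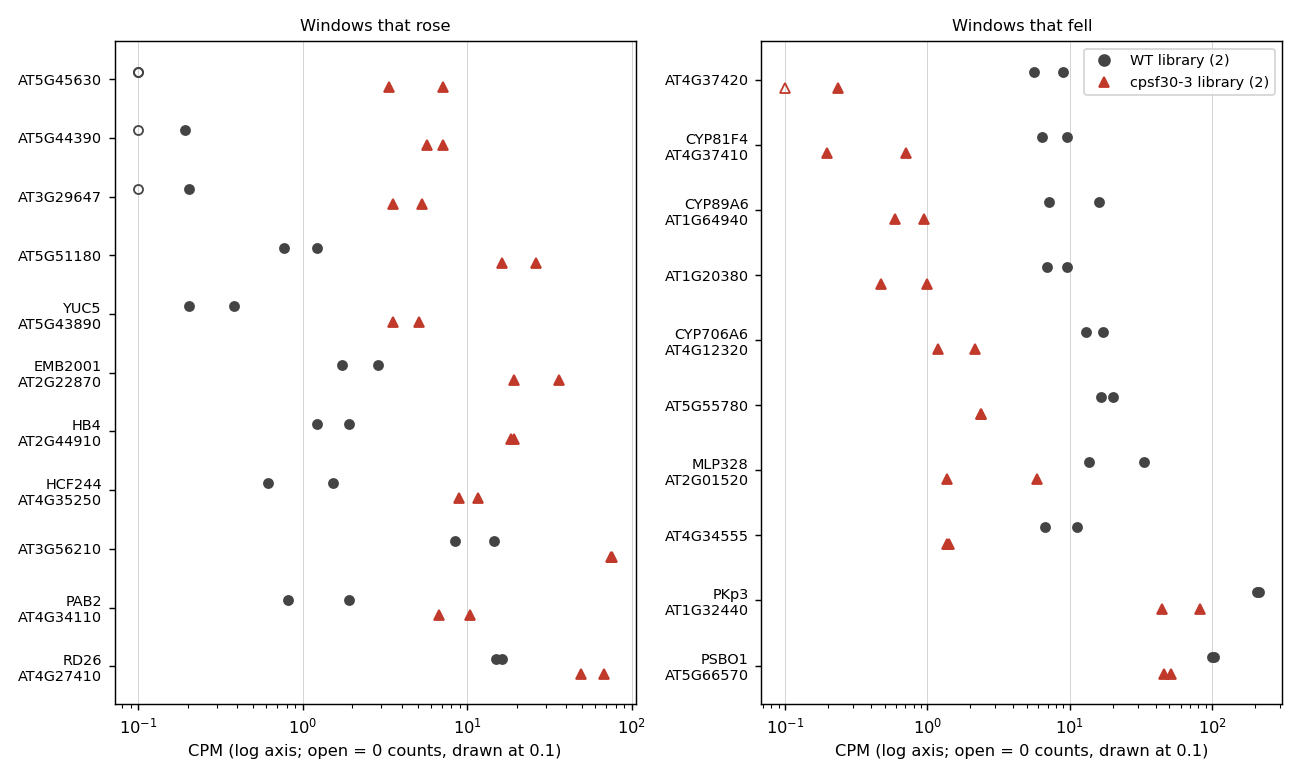
Windows that rose (left) and fell (right) in *cpsf30-3*, with 1 symbol per library on a log CPM axis and open symbols for 0 counts. All rows are called windows, and in every called window the 2 *cpsf30-3* libraries lie on one side of the 2 WT libraries. Rows run from *AT5G45630* (0 counts in both WT libraries) to *RD26*, and from *AT4G37420* to *PSBO1*.

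A set of windows in the glycine-rich protein gene cluster of chromosome 2 could not be counted as separate genes. *AT2G05390*, *AT2G05400*, *AT2G05410*, *AT2G05430* and *AT2G05435* lie between 14.8 and 30.0 kb from the first window drawn, yet all 5 held 1 and 0 counts in the WT libraries and 66 and 35 in those of *cpsf30-3*, and the same counts as each other in the other 4 libraries. *AT2G05420*, between them, had 1 and 0 counts in WT and 66 and 36 in *cpsf30-3*. Identical counts over such distances show that the same reads entered several windows; how they did so was not tested. The 6 log2 changes of 6.43 to 6.45 (edgeR adjusted p between 0.00016 and 0.00017) therefore stand for 1 event. On one side lies *GRP3S* (AT2G05380), a glycine-rich secreted protein gene, whose window went from 22 and 30 counts to 131 and 64 (log2 change 2.0, SE 0.29, adjusted p = 0.0022). Further along lies *AT2G05510*, a glycine-rich protein gene whose window went from 9 and 8 counts to 79 and 45 (2.95, SE 0.34, edgeR adjusted p = 0.00039). Its gain was close in size to the 66 and 35 counts shared by the windows above. Whether the same reads entered this window too was not tested, so it cannot be taken as a separate event.

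Next to these rises the cluster held falls. *GRP9* (AT2G05440) had 1146 and 565 counts in its window in WT and 254 and 443 in *cpsf30-3* (log2 change -1.13, SE 0.32, edgeR adjusted p = 0.047). Behind it, *AT2G05450* and 6 further windows each contained 1105 and 553 reads in WT and 231 and 409 in *cpsf30-3*. The log2 change was -1.21 (SE 0.32, edgeR adjusted p = 0.036), again the same reads counted 7 times. Of these windows, *AT2G05480* and *AT2G05490* are on the minus strand and *AT2G05450* is on the plus strand. They held equal counts in all 8 libraries, so these reads entered windows of both strands. The lower WT library and the higher mutant library were close, at 553 and 409 counts. Without WT replicate 1 the change of *AT2G05450* was -0.68 (adjusted p = 0.44) and that of *GRP9* -0.59 (adjusted p = 0.49), and without *cpsf30-3* replicate 1 both were under 2-fold (-0.75 and -0.68). *GRP3S* also lost its call without WT replicate 1 (adjusted p = 0.1). *GRP-3* (AT2G05520), at the far end, did not pass, with 170 and 142 counts in WT and 181 and 98 in *cpsf30-3* (-0.06, SE 0.20, adjusted p = 0.89). Counting called windows that overlap or hold the same reads once left 357 rises and 68 falls of 379 and 75.

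**Figure D4:**
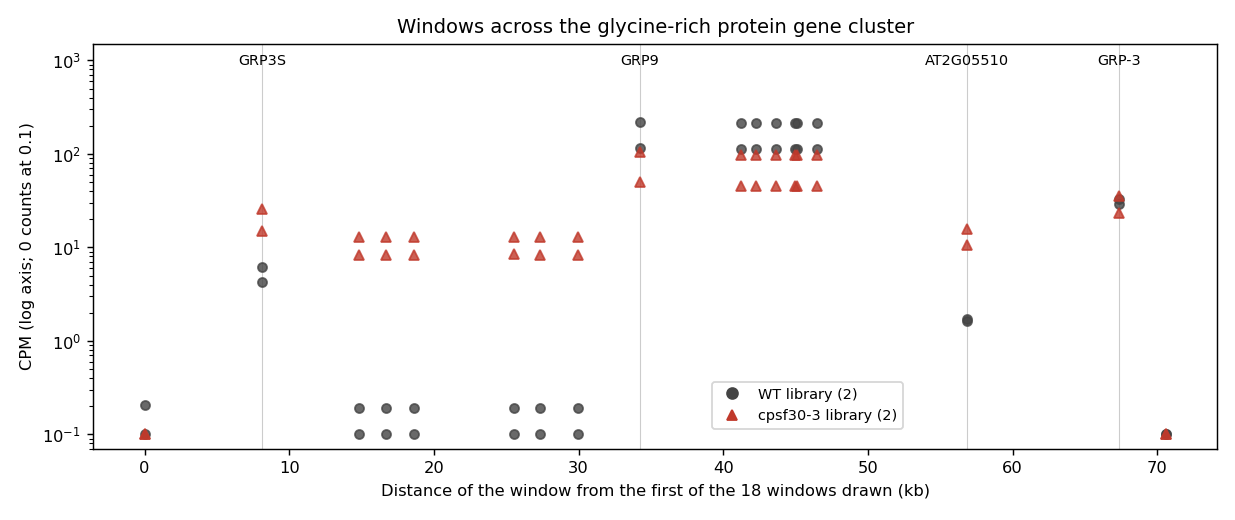
CPM (log axis, 0 counts drawn at 0.1) of 18 windows across the cluster, against their distance in kb, for the 2 WT and 2 *cpsf30-3* libraries. Windows between 14.8 and 30.0 kb sit at the same 2 mutant levels and at most at 1 count in WT, and those between 41.2 and 46.5 kb repeat 1 set of 4 values.

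Large and well-covered rises occurred in windows that face a gene on the other strand, among them genes induced by stress. On the list of rapid stress response genes, 5 windows of neighbours faced a listed gene and were tested. Of the 5, 4 rose, with a median log2 change of 3.60. Among all windows that face only opposite-strand genes, a class without *AT4G34412*, 2.74% rose. The list was chosen with earlier results of these data known, so its share describes these loci and is no independent support. The neighbour window *AT1G80850* faces the 3′ end of *WRKY40*, a pathogen- and wound-induced transcription factor gene. It held 18 and 29 counts in the WT libraries and 421 and 539 in those of *cpsf30-3*, or 4.69 ± 1.75 and 105.3 ± 31.4 CPM (SD, n = 2), a log2 change of 4.49 (SE 0.26, edgeR adjusted p = 5.2e-06). *AT2G38480* faces *WRKY33*, which encodes a regulator of defence against necrotrophic fungi. Its window had 96 and 117 counts in WT and 1097 and 1194 in *cpsf30-3*, or 21.2 ± 3.88 and 249.5 ± 46.6 CPM, a log2 change of 3.56 (SE 0.15, adjusted p = 7.4e-07). *AT4G24580* faces *DIC2*, a mitochondrial dicarboxylate carrier gene, and went from 13 and 24 counts to 232 and 397 (4.23, SE 0.38, adjusted p = 9.7e-05). *AT4G34412* faces *RRTF1*, a redox-responsive ERF gene, and also overlaps AT4G08985 on its own strand. It went from 3 and 0 counts to 16 and 20 (3.60, SE 0.71, adjusted p = 0.011). In all 4 the lowest mutant library was several times the highest WT library. The fifth, *AT1G06990*, faces the exocyst gene *EXO70B2* and did not pass, with 35 and 30 counts in WT and 45 and 68 in *cpsf30-3* (0.94, SE 0.30, adjusted p = 0.078); without *cpsf30-3* replicate 1 it passed (1.32, adjusted p = 0.00021).

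The own downstream windows of the 4 faced stress genes did not pass the test. The *WRKY40* window contained 166 and 144 reads in WT and 153 and 165 in *cpsf30-3* (log2 change 0.17, SE 0.16, edgeR adjusted p = 0.56). The *WRKY33* window held 122 and 117 against 115 and 117 (0.08, SE 0.16, adjusted p = 0.79). Those of *DIC2* (14 and 18 against 23 and 31, adjusted p = 0.15) and *RRTF1* (54 and 62 against 52 and 44, adjusted p = 0.7) did not pass either. Of 8 tested own windows of the list, 1 rose by edgeR (12.5%, against 3.38% of all tested windows) and 0 fell, with a median of 0.13. At an unadjusted p under 0.05, 2 of the 8 were higher and 0 lower, against 1645 and 1190 of all 11228. DESeq2 called 0 of the 8. The rise was that of *MPK3*, the stress-activated protein kinase gene, from 0 and 2 counts to 12 and 16 (3.77, SE 0.79, adjusted p = 0.015). The *AT1G80850* window covers the end of *WRKY40*, and reads of *WRKY40* mRNA and of readthrough from *AT1G80850* cannot be told apart in it. Own windows of the stress genes can likewise hold reads of the neighbour. Their lack of a call therefore does not show that readthrough behind the stress genes was unchanged. The *AT1G80850* window held 1123 and 242 counts in *fip37L* and 22 and 177 in *cpsf30-1*, and the *AT2G38480* window 2339 and 509, and 76 and 200. In both windows the replicates of those lines differed more than those of *cpsf30-3*. The calls of *MPK3* and *AT4G34412* were lost without WT replicate 1 (adjusted p = 0.23 and 0.079) or WT replicate 2 (0.081 and 0.13).

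**Figure D5:**
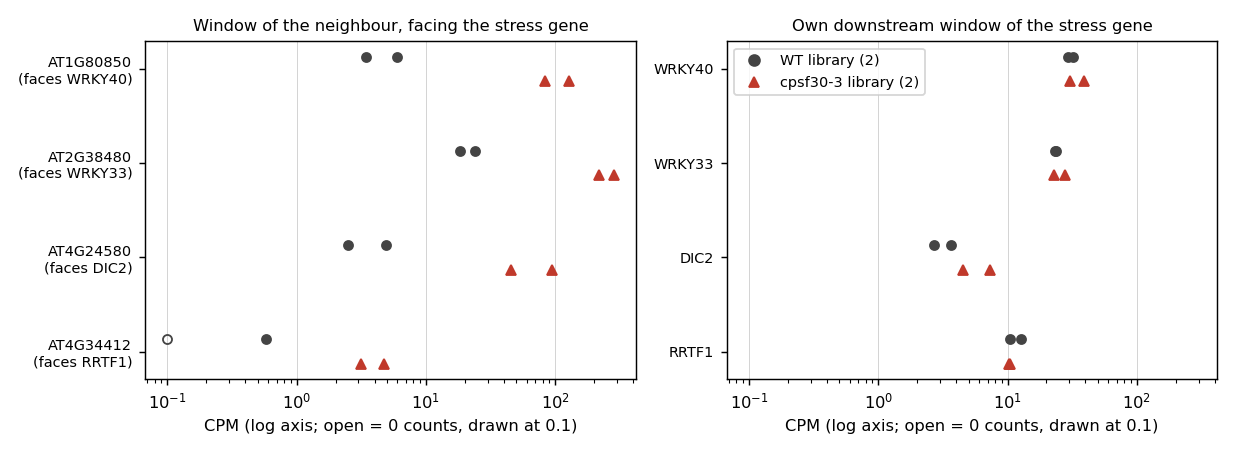
CPM per library (log axis, open symbols for 0 counts) in the windows of neighbours that face 4 stress genes (left) and in the own windows of those genes (right). On the left the 2 *cpsf30-3* libraries lie above both WT libraries in every row, with log2 changes from 3.56 to 4.49; on the right no row was called.

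The other members of the 8 largest rises of this kind faced genes outside the list. *AT4G23800* faces *WRKY53*, a regulator of leaf senescence, and went from 31 and 30 counts to 219 and 372 (log2 change 3.43, SE 0.33, edgeR adjusted p = 0.00014). In *cpsf30-1* it held 25 and 24. *AT1G04190* faces the auxin synthesis gene *YUC9*, and went from 6 and 7 to 74 and 66 (3.53, SE 0.30, adjusted p = 7.1e-05). The own window of *YUC9* rose as well, from 12 and 11 counts to 48 and 42 (2.08, SE 0.29, adjusted p = 0.0017). *AT3G04630* faces *AT3G04640*, a glycine-rich protein gene, and went from 72 and 77 to 571 and 768 (3.31, SE 0.22, adjusted p = 1.2e-05). The last of these were *AT3G10920*, facing *AT3G10930* (2 and 1 to 16 and 34), and *AT2G11271*, facing *AT2G11270* (3 and 2 to 30 and 16). Both of these lost their calls without WT replicate 1 (adjusted p = 0.13 and 0.1) or WT replicate 2 (0.094 and 0.071). As a family, transcription factor genes of the WRKY, ERF, MYB, NAC and zinc-finger types were faced by 178 tested windows, of which 10 rose and 0 fell, 5.62% against 2.74% of the class, with a median of 0.03 against -0.01. DESeq2 called 9 higher and 0 lower. Other families of faced genes had shares as high or higher, such as cell wall enzymes with 6 of 75 (8.0%, median 0.18). For NLR immune receptors it was 2 of 27 (7.41%, median -0.17) and for P450 enzymes 2 of 31 (6.45%, median 0.04). Falls in these 3 families numbered 1, 1 and 0 in turn. Own windows of transcription factor genes rose in 5 of 192 cases (2.6%) in the facing class and in 2 of 116 (1.72%, against 4.17%) in the others.

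Falls were fewer. Of the 8 largest, chosen by the same limits with the counts of WT, 3 were windows of cytochrome P450 genes, a family of oxidizing enzymes of secondary metabolism, and 4 of the 8 were free of other genes. *CYP81F4* (AT4G37410) encodes a P450 that modifies indole glucosinolates. Its window held 33 and 47 counts in the WT libraries and 1 and 3 in those of *cpsf30-3* (log2 change -4.12, SE 0.53, edgeR adjusted p = 0.00085). That window runs into *AT4G37420*, a glycosyltransferase-family (DUF23) gene on the same strand, whose own window fell from 29 and 44 counts to 0 and 1 (-5.77, SE 0.71, adjusted p = 0.00067). In *fip37L* the same windows held 4 and 7, and 2 and 2 counts. In *cpsf30-1* they held 32 and 37, and 10 and 16. *CYP89A6* (AT1G64940) encodes a P450 of the CYP89 family. Its free window (chr1:24125515-24126014) had 83 and 35 counts in WT and 3 and 4 in *cpsf30-3* (-3.90, SE 0.54, adjusted p = 0.0015). *CYP706A6* (AT4G12320) had a free window (chr4:7313279-7313778) with 68 and 84 counts in WT and 11 and 5 in *cpsf30-3*, or 15.1 ± 2.91 and 1.68 ± 0.699 CPM (SD, n = 2). The groups were far apart (-3.12, SE 0.33, adjusted p = 0.00028), whereas *fip37L* held 50 and 40 counts and *cpsf30-1* 72 and 81.

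The P450 family as a whole held calls in both directions. Of 74 tested windows of P450 genes in all classes, 3 rose and 3 fell. That is 4.05% each, against 3.38% and 0.668% of all tested windows. Of the 43 outside the facing class, 2 rose and 3 fell, with a median log2 change of -0.06. Rises made up 4.65%, against 4.17% of all windows of these classes, and falls 6.98% against 0.975%. The 3 that fell are those named above, and DESeq2 called 1 rise and 3 falls. Genes for glutathione transferases and UDP-glycosyltransferases, which conjugate small molecules, had 33 windows outside the facing class. Of these, 1 rose and 4 fell (12.1% against 0.975% of these classes), with a median of 0.11. In all classes, 3 of 79 rose and 4 fell (5.06%, against 0.668% of all tested windows). DESeq2 called 2 of the 79 higher and 0 lower. The falls were *GSTU1* (38 and 61 counts to 21 and 15), *GSTU18* (17 and 16 to 5 and 5), *GSTU20* (57 and 51 to 24 and 22) and the glycosyltransferase gene *AT1G64920* (18 and 15 to 5 and 3). Their log2 changes lay between -1.89 and -1.10, DESeq2 called 0 of them, and all 4 lost the edgeR call without WT replicate 1 (adjusted p of 0.079, 0.36, 0.21 and 0.34) or WT replicate 2 (0.3, 0.34, 0.13 and 0.25). Without *cpsf30-3* replicate 1 *GSTU18* (0.2) and *AT1G64920* (0.069) did so too, and both without *cpsf30-3* replicate 2 (0.13 and 0.13).

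The other large falls were at genes of different kinds. *AT1G20380* encodes a prolyl oligopeptidase, and its window went from 36 and 47 counts to 5 and 2 (log2 change -3.41, SE 0.43, edgeR adjusted p = 0.00085). *AT5G55780*, a cysteine- and histidine-rich C1 domain gene, went from 86 and 99 to 12 and 10 (-2.94, SE 0.26, adjusted p = 8.3e-05); the window faces *AT5G55790*. *AT4G34555*, a ribosomal protein S25 gene, went from 35 and 55 to 7 and 6 (-2.65, SE 0.40, adjusted p = 0.0025), in a window that faces *AT4G34550*. *MLP328* (AT2G01520) encodes a major latex protein-like protein. Its free window contained 174 and 67 reads in WT and 7 and 25 in *cpsf30-3* (-2.76, SE 0.52, adjusted p = 0.0084) and 0 and 0 in *fip37L*. These windows were chosen with the groups separated, and the WT libraries of *MLP328* differed widely. Without WT replicate 1 the *MLP328* call was lost (adjusted p = 0.22), and without WT replicate 2 that of *AT4G34555* (0.053). Among well-covered falls chosen after the values were seen, *AT1G32440* faces *NRT1.5*, a nitrate transporter gene of root vascular tissue, and went from 1070 and 1038 counts to 225 and 347 (-1.74, SE 0.20, adjusted p = 0.00037). The free window of *PSBO1* (AT5G66570), which encodes a photosystem II oxygen-evolving protein, went from 521 and 502 to 231 and 216 (-1.07, SE 0.09, adjusted p = 7.8e-05), and was just under 2-fold without *cpsf30-3* replicate 1 (-0.99).

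Windows of the polyadenylation genes themselves gave 2 calls and those of the m6A genes 0. Among 26 genes of the cleavage and polyadenylation machinery, 16 had a tested window. By edgeR 2 rose (12.5%, against 3.38% of all tested windows) and 0 fell, with a median log2 change of 0.16. At an unadjusted p under 0.05, 4 of the 16 were higher and 0 lower, against 1645 and 1190 of all 11228. DESeq2 called 1 higher and 0 lower. *CPSF73-I* (AT1G61010) encodes the endonuclease of the complex. Its window held 74 and 64 counts in the WT libraries and 153 and 109 in those of *cpsf30-3* (1.04, SE 0.16, adjusted p = 0.003), on the same strand as AT1G61000. *AT5G60940* encodes the CSTF50 subunit of the cleavage stimulation factor, and its window went from 6 and 7 counts to 20 and 15 (1.53, SE 0.41, adjusted p = 0.041). Leaving out any single library ended the call of *AT5G60940* (adjusted p of 0.34 and 0.24 for the WT libraries and 0.19 and 0.1 for those of *cpsf30-3*). The *CPSF73-I* call was lost without either WT library (0.072 and 0.063), and without *cpsf30-3* replicate 1 its change was 0.91. Of 12 m6A writer, eraser and reader genes, 7 were tested and 0 were called by edgeR, with a median of -0.24. At an unadjusted p under 0.05, 1 was higher and 1 lower, and DESeq2 called 0. The reader gene *ECT2*, which encodes a YTH-domain protein, came nearest, with 75 and 43 counts in WT and 126 and 88 in *cpsf30-3* (0.98, SE 0.22, adjusted p = 0.02), just under 2-fold.

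Marker genes of organs were compared because a different share of shoot or root tissue would also move windows. Of 10 shoot markers, 8 had a tested own window, of which 1 rose (12.5%, against 3.38% of all tested windows) and 0 fell. Their median log2 change was 0.24. At an unadjusted p under 0.05, edgeR gave 3 higher and 1 lower of the 8, against 1645 and 1190 of all 11228. DESeq2 called 1 of the 8 higher. The rise was that of *PORB*, the protochlorophyllide oxidoreductase gene, from 801 and 675 counts to 2026 and 1139 (1.20, SE 0.15, adjusted p = 0.00071). Its call was lost without WT replicate 1 (adjusted p = 0.06) and it was under 2-fold without *cpsf30-3* replicate 1 (0.88). Of 14 root markers, 4 were tested, 0 rose and 1 of the 4 fell, against 0.668% of all, with a median of -0.34; at an unadjusted p under 0.05, 0 were higher and 2 lower, and DESeq2 called 0. The fall was that of *CASP1*, a Casparian strip gene, from 116 and 109 counts to 45 and 57 (-1.01, SE 0.20, adjusted p = 0.011), in a window that faces AT2G36090. It was lost without WT replicate 1 (adjusted p = 0.17) or WT replicate 2 (0.12) and was under 2-fold without *cpsf30-3* replicate 1 (-0.72). The other 10 root markers had too few reads for the test. The part of organ makeup in the changes was not tested, and in whole seedlings fewer cells of a type and less RNA per cell cannot be told apart.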

How the data were processed

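The authors removed organelle and ribosomal RNA reads with Bowtie 2 (2.3.4), mapped the rest to TAIR10 with TopHat2 (2.0.7) and used BEDTools to count the reads that fell within 500 bp behind each transcript model. The deposited values are these raw read counts, without normalization, for 39087 models. The study calls its read density strand-specific, from a stranded kit, but the strand option of the counting is not given in the sources used here. The chimera lists are those of a supplementary table of the study. The window of the lowest-numbered model of each gene was used. Windows were placed on TAIR10.1 with the RefSeq annotation, whose 3′ ends can differ from those of the authors; 493 windows were not placed.

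Counts of the 4 libraries were tested in R 4.3.3 with edgeR 4.0.16 (quasi-likelihood test, TMM, low-count filter by group; two-sided; Benjamini-Hochberg over 11228 windows; SE from the F statistic). On data simulated for this comparison with 200 windows changed 4-fold, 93% were recovered, with 8 false calls. The simulation gave both groups the same spread, whereas the WT and *cpsf30-3* libraries differed (5.03% and 12.1%). It held no smaller changes, so it does not measure the error rate of the calls reported here. DESeq2 1.42.0 was an alternative. CPM values use TMM-scaled library sizes. Tables and sequences were made with Python 3.11.15 and pysam 0.24.0.

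The members, lists and families were chosen with earlier results of these data known. Named windows were those of *CPSF30*, 6 followed-up and 2 control loci, the 10 largest rises in free or same-strand windows, the 8 largest in facing windows and the 8 largest falls, each with replicates apart and, in its higher group, 20 counts or more on average, and called members of lists and families; others are said to have been chosen after their values were seen. Alternatives were another normalization, other filters, all 8 libraries in one fit, a replicate block, the adjusted p alone, windows without other genes and each library left out.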

Additional observations from a re-analysis of the deposited data

How the results depend on the processing

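Of the counts, 379 rises and 75 falls, library size normalization gave 329 and 97, the replicate block 365 and 68. No filter gave 577 and 171, a mean of at least 20 counts 232 and 36, all 8 libraries 167 and 20, DESeq2 195 and 19, and the adjusted p without a fold threshold 787 and 337. Windows without a same-strand gene gave 265 and 49, and windows without a gene on either strand 45 and 9; these fits hold fewer windows. Leaving out 1 library in turn gave between 99 and 393 rises and between 15 and 121 falls, with the lone library assumed to vary like the other group. Deviations of same-numbered libraries correlated at -0.104, which does not pair the samples by number; the crossed replicate block, added after the data were seen, gave 484 rises and 128 falls. Also added were distinct loci (357 and 68) and all transcript models (535 and 104). Rises made up 83.5% of the calls, between 70.0% and 91.1% under the alternatives. Among 92 named windows, of which 86 were called, no called window changed direction; 28 gave the same result under every alternative, and calls were lost by 45 with all 8 libraries, 30 with DESeq2, 49 without WT replicate 1, 37 without WT replicate 2 and 6 with the replicate block. The uncalled *GRP-3* window ran from -0.41 to 0.21 when a library was left out and changed sign without WT replicate 1 (0.02) and without *cpsf30-3* replicate 2 (0.21). At 2 libraries a group, windows near the floor of 3 counts give folds of low precision.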

Other observations

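Several well-covered windows facing other genes also rose in *cpsf30-3*; they were chosen after the values were seen and form no list. *AT3G15460* faces *AT3G15450*, annotated as an aluminium-induced protein with YGL and LRDR motifs, and had 2181 and 1870 counts in WT and 10848 and 6804 in *cpsf30-3* (log2 change 2.23, SE 0.12, edgeR adjusted p = 2e-06). *AT5G20260* faces *DIN10*, a dark-inducible raffinose synthase-family gene, and went from 794 and 737 counts to 3758 and 1601 (1.89, SE 0.23, adjusted p = 0.00067). *AT4G35780* faces *SEN1*, a gene of senescing and dark-treated leaves, and went from 129 and 84 to 573 and 245 (2.03, SE 0.28, adjusted p = 0.0014). In all 3 one *cpsf30-3* library was well above the other, and both lay above both WT libraries. *AT5G19130* faces *AT5G19120*, an aspartyl protease gene, and went from 807 and 715 to 3531 and 2161 (2.01, SE 0.12, adjusted p = 7.3e-06). *AT4G37608* faces *BT5*, a BTB and TAZ domain gene, and went from 181 and 190 to 861 and 792 (2.28, SE 0.10, adjusted p = 7.4e-07). The calls of *AT5G20260* (adjusted p = 0.077) and *AT4G35780* (0.06) were lost without WT replicate 1.

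Windows behind named genes of photosynthesis and carbon metabolism changed in both directions, and were likewise chosen after their values were seen. *PETC* (AT4G03280), the Rieske iron-sulphur protein gene of the cytochrome b6f complex, went from 25 and 32 counts to 110 and 132 (log2 change 2.21, SE 0.24, edgeR adjusted p = 0.00029), in a window that overlaps the same-strand tRNA gene AT4G03285. *FBP* (AT1G43670), the cytosolic fructose-1,6-bisphosphatase gene of sucrose synthesis, went from 45 and 43 to 200 and 167 (2.18, SE 0.16, adjusted p = 2.2e-05). These 2 windows held 252 and 285, and 581 and 711 counts in *cpsf30-1*, and *PSBO1*, which fell in *cpsf30-3*, held 349 and 372 there. The wider family of photosystem and light-harvesting genes had 21 tested windows outside the facing class, of which 2 rose (9.52%, against 4.17% of all windows of these classes) and 0 fell (against 0.975%) by edgeR, with a median log2 change of 0.41. At an unadjusted p under 0.05, 10 of the 21 were higher and 1 lower, against 696 and 452 of 4720 windows of these classes. DESeq2 called 1 of the 21 higher and 0 lower. In the facing class, 30 windows of the family had a median of 0.0. Of these, 2 rose (6.67%, against 2.74% of the class) and 1 fell (3.33%, against 0.437%). At an unadjusted p under 0.05, edgeR gave 8 of the 30 higher and 6 lower. Over all 51 windows of the family the median was 0.06. That family was found by words in the product names and does not hold *PSBO1*.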
